A study of Mus musculus with 10 samples.

Results

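The genes described here are 10 mouse genes read as markers of microglia and of complement C1q: Cx3cr1, P2ry12, Tmem119, Csf1r, Aif1, Trem2, Tyrobp, C1qa, C1qb and C1qc. They were chosen by symbol: every non-control probe whose gene name in the scanner output was one of these was taken, which gave 15 probes of 41174 on the array. All 15 probes, and so all 10 genes, passed the filter on dim probes, as did 30978 probes of 20065 genes in all. RNA came from the hippocampus of adult ICR mice labelled male, 5 in each group, with 1 array per mouse. HE mice were born to dams given estradiol valerate, an oral estrogen ester, in corn oil at 100 µg per kg per day from embryonic day E5.5 to E11.5. NC mice were born to dams given the same volume of corn oil. The labels give no litter for any mouse, so the p-values measure the spread between these mice, some of which may be littermates.

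Microglia are the resident macrophages of the brain. They depend on the receptor CSF1R for survival, and they sense neurons through CX3CR1 and purines through P2RY12. TREM2 is a lipid-sensing receptor that signals through the adaptor TYROBP. C1q, assembled from the chains of C1qa, C1qb and C1qc, starts the classical complement pathway. In the mouse brain it is made mainly by microglia, where it has been tied to the tagging of synapses for removal.

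Values are log2 of the background-subtracted spot brightness relative to the 75th percentile of the non-control spots of the same array, so that 0 is the brightness of the spot at that percentile. The percentile itself lay between 899.44 and 1288.8 brightness units, and 70.27 to 78.85% of the spots of an array were well above background. All 15 probes were well above background on all 10 arrays, so the defining microglia markers were measured in every mouse, and none of their spots was saturated or marked as an outlier. Probes differ in how brightly they bind, so values are compared between mice for 1 probe and never between probes. Where a list mean is given, it is the mean of the log2 values of its genes on an array, each gene counting equally. In tissue RNA, fewer cells of a type and less RNA per cell cannot be told apart. Xist, which marks cells with more than 1 X chromosome, read 3.20 to 4.44 on HE 1 to HE 3 and NC 1 to NC 4, where the Y-linked Ddx3y read -9.32 to -5.54, so that 7 of the 10 arrays went against the male label. On HE 4, HE 5 and NC 5, Xist read -7.26 to -4.53 and Ddx3y 1.08 to 1.38. The arrays lay on 3 slides: HE 1, HE 2 and NC 5 on slide 2, HE 3 to HE 5 on slide 3, and NC 1 to NC 4 on slide 1. Slide and group can therefore be separated only through slide 2. The tissue label was checked against 6 hippocampal genes chosen afterwards (Prox1, Wfs1, Fibcd1, Neurod6, Zbtb20 and Calb1), and all 6 were well above background on all 10 arrays.

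Cx3cr1 was higher in HE hippocampus, and it was the 1 gene of the 10 that passed the test. The other 9 did not pass in either direction. Over all 20065 genes 20.1% passed, 6.82% higher and 13.3% lower in HE, so 1 of 10 is near the share over the whole array. The log2 differences of the 10 genes ran from -0.31 for Trem2 to 0.64 for Cx3cr1, 6 of them above 0 and 4 below, with a median of 0.08. Over all genes the median was -0.04. The 95% intervals of the 10 genes reached between 0.25 and 0.50 to either side of the estimate on the log2 scale. Whether the difference of Cx3cr1 was unlike that of the other genes was not tested.

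**Figure D1:**
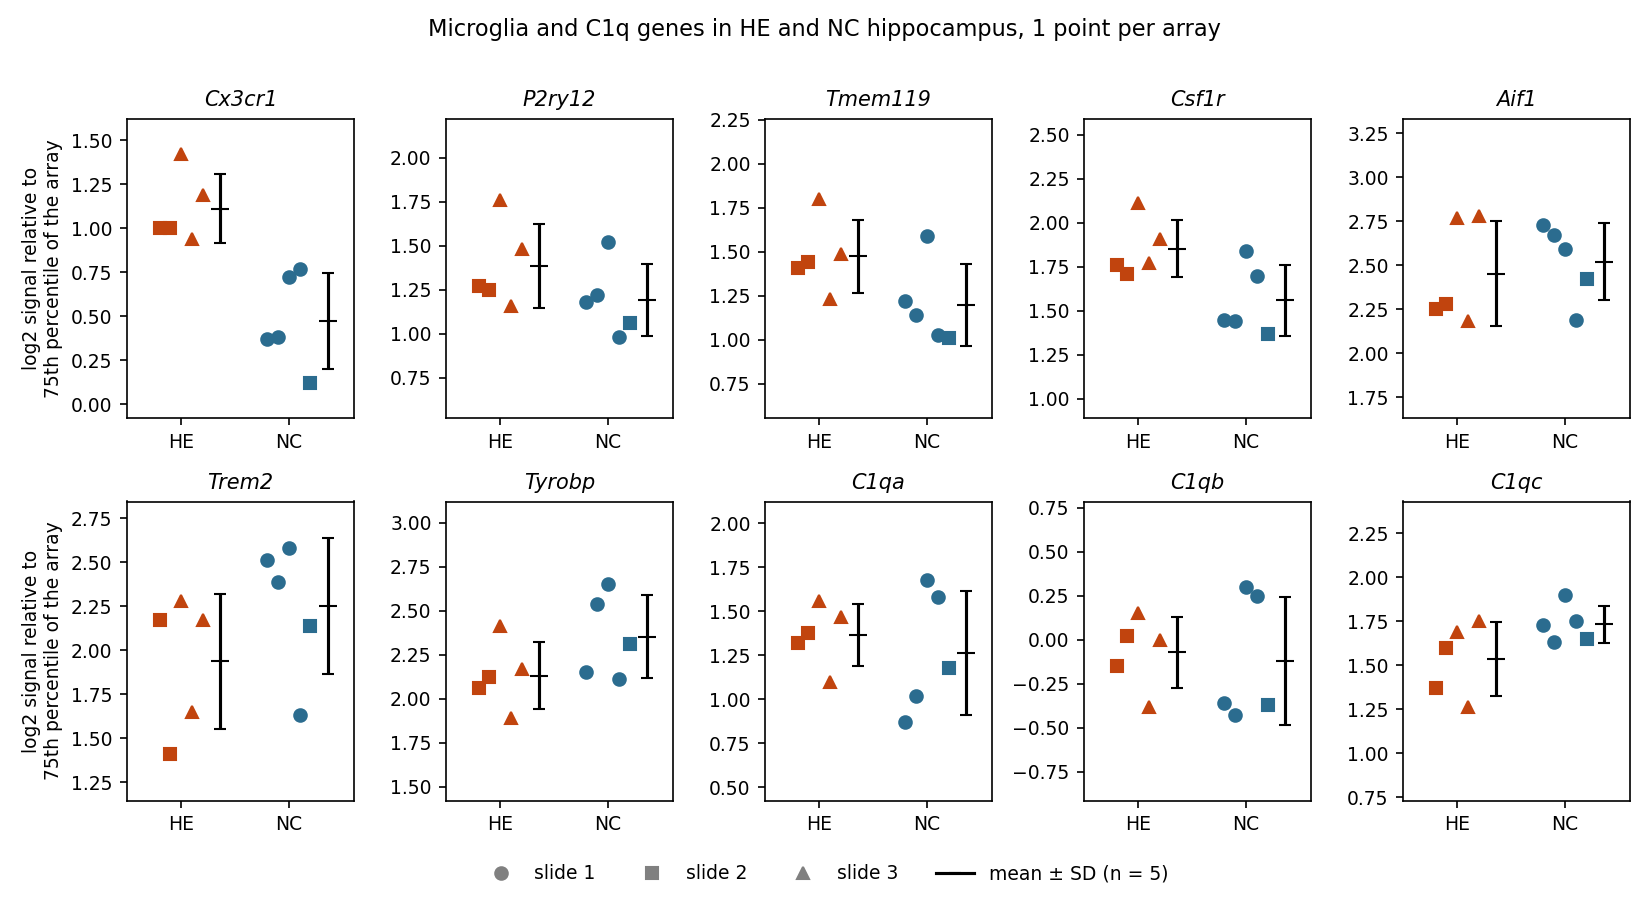
Log2 signal relative to the 75th percentile of the array for each of the 10 genes, with HE left of NC, 1 point per array, and the mean ± SD of each group (n = 5) as a bar beside the points. The shape of a point gives the slide. The 5 HE points of Cx3cr1 lie between 0.94 and 1.42 and the 5 NC points between 0.12 and 0.77, while the groups overlap for the other 9 genes.

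Cx3cr1, the receptor through which microglia bind the neuronal chemokine fractalkine, has 2 probes on the array. The gene is represented by the brighter one, at base 2476 of its transcript (chr9:119959018-119959077, minus strand, mm9). It read 1.0, 1.0, 1.42, 0.94 and 1.19 in HE 1 to HE 5, and 0.37, 0.38, 0.72, 0.77 and 0.12 in NC 1 to NC 5. All 5 HE arrays lay above all 5 NC arrays, a separation also seen in 5.9% of all genes. The means were 1.11 ± 0.20 in HE and 0.47 ± 0.27 in NC (SD, n = 5 each). The log2 difference was 0.64 ± 0.15 (SE, 95% interval 0.31 to 0.97), or 1.56-fold with an interval of 1.24 to 1.95, with an adjusted p of 0.0192 in limma. Leaving out any 1 of the 10 arrays kept the call, with log2 differences of 0.55 to 0.71 and adjusted p-values of 0.0163 to 0.0486. Within slide 2, the only slide with both groups, the difference was 0.88 with an adjusted p of 0.0906 for HE 1 and HE 2 against NC 5. That fit has a single NC array, taken to vary like the HE arrays, and no gene of 20058 passed in it, although 7075 had an unadjusted p under 0.05. With slide as a fixed block the difference was 0.88 with an adjusted p of 0.108. Among the 7 arrays with high Xist it was 0.58, with an adjusted p of 0.102.

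The second Cx3cr1 probe lies further upstream, at base 884 of the transcript (chr9:119960610-119960669, minus strand, mm9). Its sequence is shown because the gene is the one that passed, and because this stretch gives a second reading of it.
Cx3cr1, base 884: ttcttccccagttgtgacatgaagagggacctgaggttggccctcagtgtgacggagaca
This probe read -3.57, -3.59, -3.16, -4.31 and -3.88 in HE 1 to HE 5, and -4.60, -4.26, -3.82, -4.53 and -4.27 in NC 1 to NC 5. HE 1 to HE 3 lay above every NC array, while HE 4 and HE 5 fell within the NC range. The log2 difference was 0.59 ± 0.22 (95% interval 0.11 to 1.08) and did not pass among probes, with an adjusted p of 0.0736. Of all 30978 probes, 23% passed, with 8.21% of all probes higher in HE and 14.8% lower, and 1 of the 15 probes described here did. The value passed without HE 4 (0.74, adjusted p 0.0335) and without NC 3 (0.71, adjusted p 0.0415), and with the normexp background correction, a model-based subtraction of the local background, it turned to -0.84. It also passed with quantile normalization and in the authors' deposited table (0.84, adjusted p 0.0358 in each) and with the Xist pattern as a covariate (adjusted p 0.0425).

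Csf1r, the receptor for the growth factors CSF1 and IL34, has 3 probes, and all 3 differed in the same direction as Cx3cr1 without passing the test. The brightest, at base 3465 of the transcript, read 1.76, 1.71, 2.11, 1.77 and 1.91 in HE 1 to HE 5, and 1.45, 1.44, 1.84, 1.70 and 1.37 in NC 1 to NC 5. HE 3 and HE 5 lay above all NC arrays, and NC 3 above the other 3 HE arrays. The difference was 0.29 ± 0.12 (95% interval 0.03 to 0.56), with a p of 0.0346 before and 0.107 after adjustment. The probe at base 2871, which spans an intron, gave 0.33 ± 0.17 (adjusted p 0.183 over probes), and it passed only when NC 3 was left out (0.48, adjusted p 0.0273, among the 10 omissions of 1 array). The probe at base 483 gave 0.30 ± 0.12 (adjusted p 0.103 over probes). Under normexp the gene passed at 0.47, where 43.5% of all genes passed, 9.27% higher and 34.3% lower in HE. The dimmest Csf1r probe, at base 483, turned to -0.55 there.

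P2ry12, the purine receptor of resting microglia, has 1 probe, at base 1873 of the transcript (chr3:59020598-59020657, minus strand, mm9). It read 1.27, 1.25, 1.76, 1.16 and 1.48 in HE 1 to HE 5, and 1.18, 1.22, 1.52, 0.98 and 1.06 in NC 1 to NC 5. HE 3 alone lay above all NC arrays and the groups otherwise overlapped. The difference was 0.19 ± 0.14 (95% interval -0.12 to 0.50, adjusted p 0.353). Tmem119, a surface protein used to tell microglia from other brain macrophages, was read by a probe at base 1800 (chr5:114243962-114244021, minus strand, mm9). Its values were 1.41, 1.44, 1.80, 1.23 and 1.49 in HE 1 to HE 5, and 1.22, 1.14, 1.59, 1.03 and 1.01 in NC 1 to NC 5. All 5 HE arrays lay above the NC median, yet NC 3 exceeded 4 of them. The difference was 0.28 ± 0.14 (95% interval -0.03 to 0.59, adjusted p 0.177), and it passed under normexp (0.43). There 43.5% of all genes passed, 9.27% higher and 34.3% lower in HE.

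**Figure D2:**
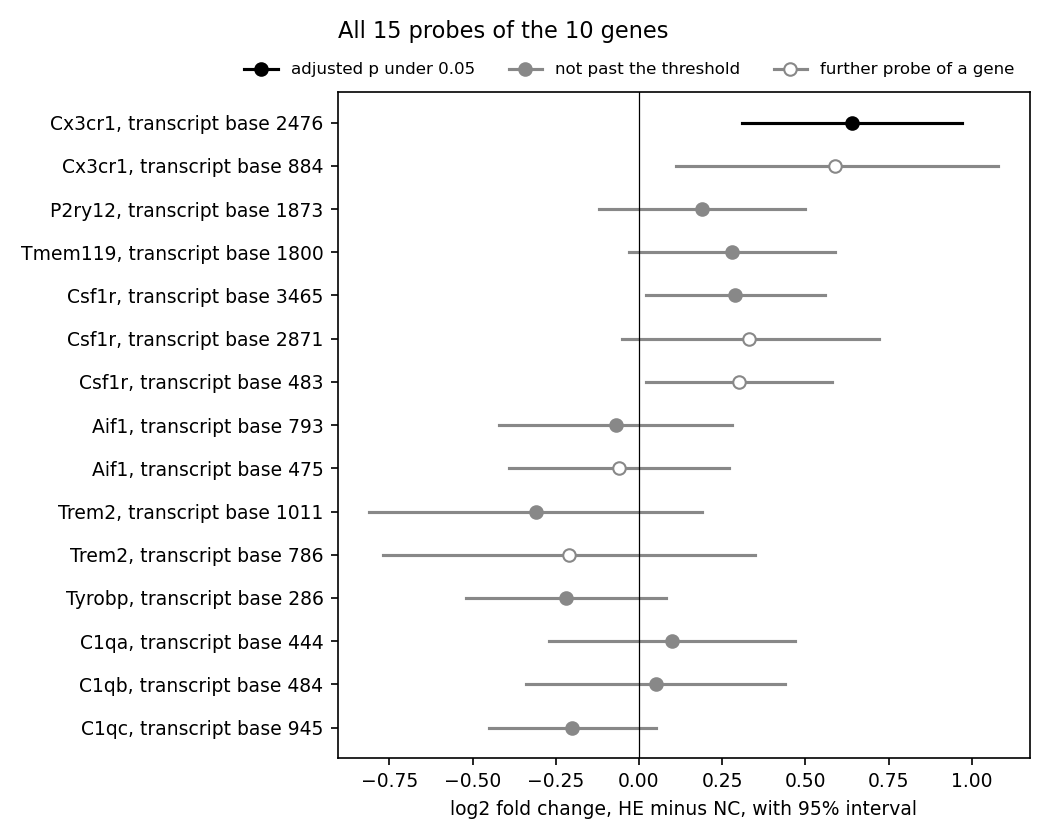
Log2 fold change, HE minus NC, for each of the 15 probes with its 95% interval from limma. Filled points are the probes that stand for the gene, open points the further probes of the same gene, and black marks an adjusted p under 0.05; the brighter Cx3cr1 probe at 0.64 is the 1 black point, and the probes of 1 gene lie on the same side of 0.

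Trem2 and its adaptor Tyrobp were on the other side of 0. Trem2 was read at base 1011 (chr17:48491522-48491581, plus strand, mm9), with 2.17, 1.41, 2.28, 1.65 and 2.17 in HE 1 to HE 5, and 2.51, 2.39, 2.58, 1.63 and 2.14 in NC 1 to NC 5. HE 2 was the lowest HE array and NC 4 the lowest NC array, and the groups overlapped. The difference was -0.31 ± 0.23 (95% interval -0.82 to 0.19, adjusted p 0.342), and -0.21 ± 0.25 (adjusted p 0.572 over probes) at the second probe, base 786, which spans an intron. Tyrobp, which couples several myeloid receptors to intracellular kinases, has a single probe at base 286 that spans an intron (chr7:31200651-31202378, plus strand, mm9). It is shown because it covers a junction in the message of the adaptor.
Tyrobp, base 286: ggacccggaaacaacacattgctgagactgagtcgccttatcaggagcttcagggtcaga
Tyrobp read 2.06, 2.12, 2.41, 1.89 and 2.17 in HE 1 to HE 5, and 2.15, 2.54, 2.65, 2.11 and 2.31 in NC 1 to NC 5. HE 1 and HE 4 lay below every NC array and the other 3 HE arrays within the NC range. The difference was -0.22 ± 0.14 (95% interval -0.52 to 0.08, adjusted p 0.267). With normexp values centred on the median gene, both signs turned, to 0.10 for Trem2 and 0.14 for Tyrobp, and neither passed.

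Aif1 encodes IBA1, the calcium-binding protein stained most often to show microglia. Its brighter probe, at base 793 (chr17:35307959-35308018, minus strand, mm9), read 2.25, 2.28, 2.77, 2.18 and 2.78 in HE 1 to HE 5, and 2.73, 2.67, 2.59, 2.19 and 2.42 in NC 1 to NC 5. Both groups spread over the same range. The difference was -0.07 ± 0.16 (95% interval -0.42 to 0.29, adjusted p 0.787), and under normexp it was 0.06. The other probe spans an intron (base 475, chr17:35308497-35308742, minus strand, mm9) and is shown because 1 of its arrays stood apart.
Aif1, base 475: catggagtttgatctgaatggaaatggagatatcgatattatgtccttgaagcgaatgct
This probe read -0.19, -0.13, 0.41, -0.20 and -0.24 in HE 1 to HE 5, and 0.21, 0.14, -0.25, -0.19 and 0.04 in NC 1 to NC 5. HE 3 was far above the other 4 HE arrays. The difference was -0.06 ± 0.15 (adjusted p 0.789 over probes).

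The C1q chain genes did not pass the test, and their signs differed. They are consecutive neighbours in the RefSeq gene table, in the order C1qb, C1qc, C1qa, and their 3 probes span 15891 bases of chromosome 4. The probes of C1qa (chr4:136452409-136452468, minus strand, mm9) and C1qb (chr4:136436578-136436637, minus strand, mm9) are shown because these 2 chains, read by unlike sequences, varied together over the arrays.
C1qa, base 444: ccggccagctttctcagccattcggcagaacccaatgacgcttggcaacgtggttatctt
C1qb, base 484: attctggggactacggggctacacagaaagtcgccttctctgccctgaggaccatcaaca
C1qa read 1.32, 1.38, 1.56, 1.10 and 1.47 in HE 1 to HE 5, and 0.87, 1.02, 1.68, 1.58 and 1.18 in NC 1 to NC 5. The HE arrays lay inside the NC range, which was the wider of the ranges, with a difference of 0.10 ± 0.17 (95% interval -0.27 to 0.47, adjusted p 0.700). C1qb read -0.15, 0.02, 0.15, -0.38 and 0.00 in HE 1 to HE 5, and -0.36, -0.43, 0.30, 0.25 and -0.37 in NC 1 to NC 5. Its NC arrays fell apart into NC 3 and NC 4 at the top and the other 3 at the bottom, and the difference was 0.05 ± 0.18 (95% interval -0.34 to 0.44, adjusted p 0.869). C1qc, at base 945 (chr4:136445766-136445825, minus strand, mm9), read 1.37, 1.60, 1.69, 1.26 and 1.75 in HE 1 to HE 5, and 1.73, 1.63, 1.90, 1.75 and 1.65 in NC 1 to NC 5. HE 1, HE 2 and HE 4 lay below every NC array, and the difference was -0.20 ± 0.11 (95% interval -0.45 to 0.05, adjusted p 0.227). The sign of C1qc turned to 0.16 with centred normexp values.

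The arrays differed in the level of the whole set. Averaged over the 10 genes, HE 3 was 0.28 above the mean of its group and NC 3 was 0.29 above the mean of its own, and each was the highest array of its group for 8 of the 10 genes. HE 4 was 0.24 below the HE mean (-0.24) and was the lowest HE array for 8 genes. The remaining arrays lay between -0.15 and 0.12. Without HE 3 and NC 3 the Cx3cr1 difference was 0.62 with an adjusted p of 0.0303, and it was again the 1 gene of the 10 that passed. This omission was chosen after seeing the data, and 14.5% of all genes passed in it, 4.11% higher and 10.4% lower in HE.

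After the group means were taken out, the 10 genes varied together to unequal degrees over the 10 arrays. The Pearson correlations of the 45 pairs ran from -0.05 to 0.95, with a median of 0.64. All these values share the scaling of each array, and the correlations are given as a description. Cx3cr1 went with Csf1r (0.94), C1qb (0.87) and C1qa (0.77), and C1qa with C1qb (0.95). P2ry12 went with Tmem119 (0.95) and Tyrobp (0.87), and Trem2 with Aif1 (0.78) and P2ry12 (0.75). Between C1qa or C1qb and Aif1 or Trem2 the correlations lay between -0.05 and 0.03. NC 4 shows the split: it had the highest Cx3cr1 of its group and the lowest P2ry12, Aif1, Trem2 and Tyrobp. Outside the gene lists, the genes whose deviations followed the mean of the 10 genes most closely over the 10 arrays included Smad7 (r = 0.96), an inhibitor of TGF-beta signalling, Cap1 (0.96), which acts on actin, the transcription factor Sox8 (0.95) and Tiparp (0.95), a target of the aryl hydrocarbon receptor. Of these 4, Cap1 was higher in HE by 0.97 on the log2 scale (adjusted p 0.0106) and the other 3 did not pass. They were picked for the highest correlations in a search over the tested genes outside the lists, so high values follow from the picking. A link between them and the 10 genes was not tested.

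The genes around the 10 were taken by role from lists, and of the 22 genes picked from these lists that passed, none did so with slide as a fixed block, where 0.922% of all genes passed. The list counts that follow stand beside 6.82% of all genes higher and 13.3% lower in HE. Ligands form a list of 6 genes, which holds Cx3cl1, Csf1 and Il34, the TREM2 ligands Apoe and Clu, and Tgfb1, a microglial maintenance factor whose receptor is not among the 10. Of these, 2 were higher and 1 lower in HE, with a median of 0.18. Cx3cl1, which encodes fractalkine, the neuronal ligand of CX3CR1, lay between 6.28 and 6.64 in HE and between 4.88 and 6.34 in NC, with a difference of 0.86 ± 0.22 (adjusted p 0.0275). Of the 5 HE arrays, 3 lay above all NC arrays. The call was lost without HE 1, HE 3, HE 5 or NC 2 (adjusted p up to 0.0618), and when its 2 probes were averaged (0.56, adjusted p 0.0949). Il34, a neuronal ligand of CSF1R, lay between 2.39 and 2.69 in HE and 1.49 and 2.29 in NC without overlap, with a difference of 0.56 ± 0.16 (adjusted p 0.0384), lost on leaving out any HE array, NC 2, NC 3 or NC 5 (adjusted p up to 0.0824). Csf1, the other CSF1R ligand, lay between -0.56 and 0.11 in HE and 0.20 and 0.45 in NC, with a difference of -0.44 ± 0.13 (adjusted p 0.0374). Its call was lost without HE 1, HE 2, HE 5 or any of NC 2 to NC 5 (adjusted p up to 0.0791). The sign was positive for Il34 and negative for Csf1 under all 27 alternatives, but Il34 passed in 13 of them and Csf1 in 12, and Csf1 was -0.16 (adjusted p 0.421) with centred normexp values.

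Among signalling partners of Trem2 and Tyrobp, 1 of 9 measured genes was higher and none lower, with a median of 0.21. Inpp5d, which encodes the phosphatase SHIP1 that restrains this pathway, lay between -0.48 and -0.02 in HE and -0.81 and -0.58 in NC, with a difference of 0.36 ± 0.11 (adjusted p 0.0453). It kept the call on leaving out HE 2 and lost it on leaving out any of the other 9 arrays (adjusted p up to 0.0968). Plcg2, a phospholipase downstream of TREM2, differed by -0.28 ± 0.12 (adjusted p 0.113) and Hcst, which encodes the adaptor DAP10, by 0.81 ± 0.45 (adjusted p 0.216). Both signs turned under a normexp setting, Plcg2 to 0.05 with centring and Hcst to -0.82 without.

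Of 16 other homeostatic microglial genes, 1 was higher in HE and none lower, with a median of 0.22. Over all genes 6.82% were higher and 13.3% lower. Mertk, a receptor for the uptake of dying cells, passed with 0.43 ± 0.11 (adjusted p 0.0281), lay between 0.11 and 0.48 in HE and -0.30 and 0.15 in NC, and lost the call without HE 2, HE 3, HE 4, NC 2 or NC 5 (adjusted p up to 0.0659). The purine receptor P2ry13 (0.36 ± 0.13, adjusted p 0.0784) and the fructose transporter Slc2a5 (0.33 ± 0.12, adjusted p 0.0741) did not pass, and Slc2a5 did without HE 2 (0.42, adjusted p 0.0330). Of 16 general myeloid genes, 2 were higher and none lower, with a median of 0.15. Laptm5, a lysosomal protein of leukocytes, differed by 0.52 ± 0.15 (adjusted p 0.0391). It lost the call without HE 1, HE 2, HE 3, HE 5, NC 1, NC 2 or NC 5 (adjusted p up to 0.0843). Fcer1g, a signalling chain of Fc receptors, differed by -0.35 ± 0.12 (adjusted p 0.0607), or 0.08 with centred normexp values, and passed without HE 3 (-0.41, adjusted p 0.0487) or NC 1 (-0.42, adjusted p 0.0334).

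Of 16 measured genes that rise in activated microglia, 2 were lower and none higher in HE, with a median of -0.09. Over all genes 13.3% were lower and 6.82% higher, so the 2 lower calls are near the share over the whole array. Spp1, which encodes osteopontin and is also made by other brain cells, lay between -2.23 and -1.31 in HE and -0.81 and 1.33 in NC. Its difference was -2.27 ± 0.38 (adjusted p 0.0093), and the call was kept on leaving out any 1 array. Clec7a, which encodes the receptor dectin-1, lay between -6.46 and -4.95 in HE, where 4 of 5 arrays were well above background, and between -5.03 and -3.83 in NC. It differed by -1.16 ± 0.32 (adjusted p 0.0334), lost without HE 3, HE 4, HE 5, NC 3 or NC 5 (adjusted p up to 0.0730).

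**Figure D3:**
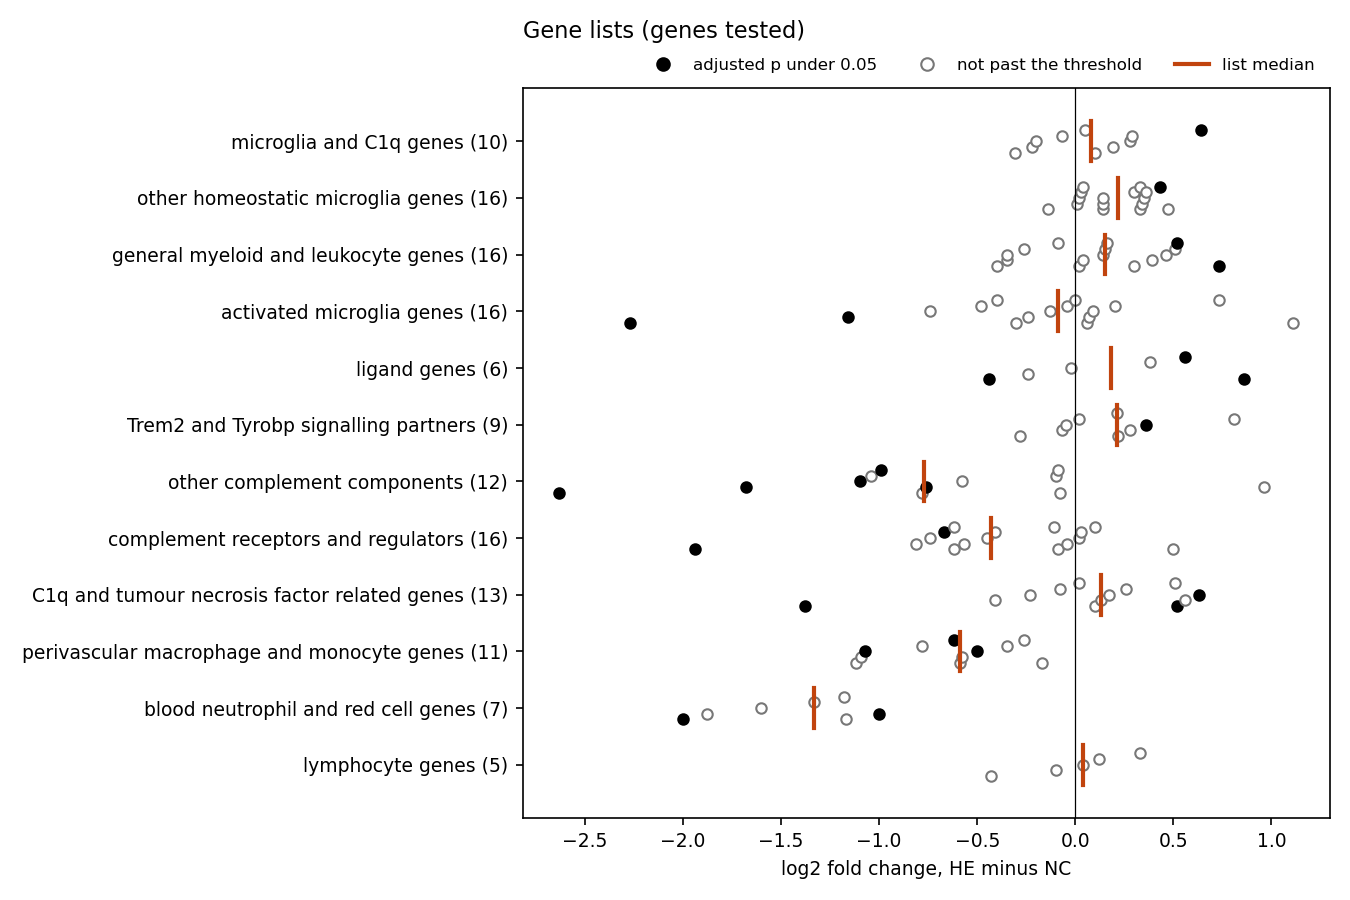
Log2 fold change, HE minus NC, of every measured gene of 12 gene lists, with the number of genes in brackets; filled points passed at an adjusted p under 0.05, open points did not, and the vertical mark is the list median. The median is 0.08 for the microglia and C1q genes, -0.77 for the other complement components and -1.33 for the blood neutrophil and red cell genes.

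Other complement components that passed were all lower in HE. Of 16 listed, 12 were measured, 5 were lower and none higher, with a median of -0.77. The 5 were Cfp (properdin), Cfb (factor B), C4b, and the lectin pathway genes Mbl2 and Masp2, of which Masp2 is named as it completes the count. Cfp lay between -0.38 and 0.30 in HE and 0.53 and 1.38 in NC, with a difference of -0.99 ± 0.19 (adjusted p 0.0131). Mbl2 differed by -2.63 ± 0.53 (adjusted p 0.0140) and Cfb by -1.68 ± 0.35 (adjusted p 0.0155), with 3 and 4 of the 5 HE arrays well above background, against all 5 NC arrays for each. These 3 kept the call on leaving out any 1 array. Masp2 (-1.10 ± 0.26, adjusted p 0.0202) lost it without NC 2 (adjusted p 0.0507), and C4b (-0.76 ± 0.19, adjusted p 0.0254), cleaved by the C1 complex that C1q starts, lost it without HE 3, HE 5 or NC 5 (adjusted p up to 0.0579). Several of these genes are known as liver products, and of 8 liver plasma protein genes 4 were lower in HE and none higher, while Ahsg, Alb, Fgb and Ttr did not pass (Ttr 0.81). Their list means were -7.44 to -5.27 in HE and -6.29 to -1.16 in NC. Without NC 1, NC 2 and NC 4, the arrays with the highest liver signal, the differences were -1.33 for Mbl2 (adjusted p 0.0602), -0.99 for Cfb (0.0894), -0.80 for Cfp (0.0581), -0.82 for C4b (0.0563) and -1.02 for Masp2 (0.0485). That fit keeps only NC 3 and NC 5 as NC arrays, and 9.56% of all genes passed in it, against 20.1% on all 10 arrays. The part of the liver signal in the lower complement values was not tested.

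The other genes of the classical pathway did not pass. The C1 proteases C1ra and C1s1, which bind C1q, differed by 0.96 ± 0.49 (adjusted p 0.186) and -0.09 ± 0.21 (adjusted p 0.784). C2, the other substrate of C1s, differed by -0.58 ± 0.24 (adjusted p 0.114), and C3, on which the pathways converge, by -1.04 ± 0.63 (adjusted p 0.260). Without NC 1 C2 passed (-0.74, adjusted p 0.0448), and without HE 2 C3 did (-1.65, adjusted p 0.0269). Signs were not stable: C1ra turned to -0.21 under normexp, C1s1 to 0.25 under quantile normalization, and C3 to 0.78 with slide as a fixed block. Of 16 measured complement receptors and regulators, 2 were lower and none higher, with a median of -0.43. Cfi (factor I, which cleaves C3b and C4b) differed by -1.94 ± 0.42 (adjusted p 0.0164), with 3 of 5 HE arrays and all 5 NC arrays well above background, and kept the call on leaving out any 1 array. Cd93, a surface protein of endothelial and myeloid cells, differed by -0.67 ± 0.18 (adjusted p 0.0328), and kept the call only on leaving out NC 3 or NC 4 (adjusted p up to 0.0756 among the other 8 omissions).

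Genes named for C1q or related to it were taken as a list of their own, which holds mostly genes with a C1q-type domain and also C1qbp, a C1q-binding mitochondrial protein without one. Of 13 measured, 2 were higher and 1 lower in HE, with a median of 0.13. C1qtnf4 differed by 0.52 ± 0.16 (adjusted p 0.0452) and C1qtnf6 by 0.63 ± 0.19 (adjusted p 0.0438), the sign of C1qtnf6 turning to -0.30 under normexp. Cbln1, which encodes a synaptic organizer first known from the cerebellum, differed by -1.38 ± 0.42 (adjusted p 0.0441). All 3 calls lay near the threshold and were lost on most omissions of 1 array. C1qtnf4 kept the call only without NC 1, C1qtnf6 only without NC 2, and Cbln1 only without HE 4, NC 1 or NC 3. After the other omissions the adjusted p-values reached 0.0892, 0.0923 and 0.0987. The differences kept their sign over these omissions, at 0.40 to 0.63 for C1qtnf4, 0.51 to 0.75 for C1qtnf6 and -1.69 to -1.17 for Cbln1.

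Marker lists of other cells that a hippocampal dissection can hold were set beside these genes. Of 11 measured genes of perivascular macrophages and monocytes, all well above background on all 10 arrays, 3 were lower in HE and none higher, with a median of -0.59. Their list mean lay between -3.08 and -2.46 in HE and -2.80 and -1.40 in NC, so the groups overlapped. The 3 were Plac8 (-1.07, adjusted p 0.0282), the scavenger receptor Stab1 (-0.50, adjusted p 0.0379) and Ly6c2 (-0.62, adjusted p 0.0252), whose probe may also read its near-identical neighbour Ly6c1. Plac8 lost the call without HE 1, HE 3 or HE 5, Ly6c2 without HE 1, HE 4, HE 5 or NC 2, and Stab1 without HE 1, HE 3, HE 4, HE 5, NC 2 or NC 5, with adjusted p-values up to 0.0647, 0.0603 and 0.0882. The monocyte receptor gene Ccr2 was too dim to be tested. Of 7 measured genes of blood neutrophils and red cells, 5 of them well above background on all 10 arrays, 2 were lower and none higher. Their median was -1.33, and their list mean was -1.20 to -0.35 in HE and -0.74 to 1.99 in NC. Of 5 measured lymphocyte genes none passed, with a median of 0.04 and list means of -5.28 to -4.80 in HE and -5.29 to -4.60 in NC.

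**Figure D4:**
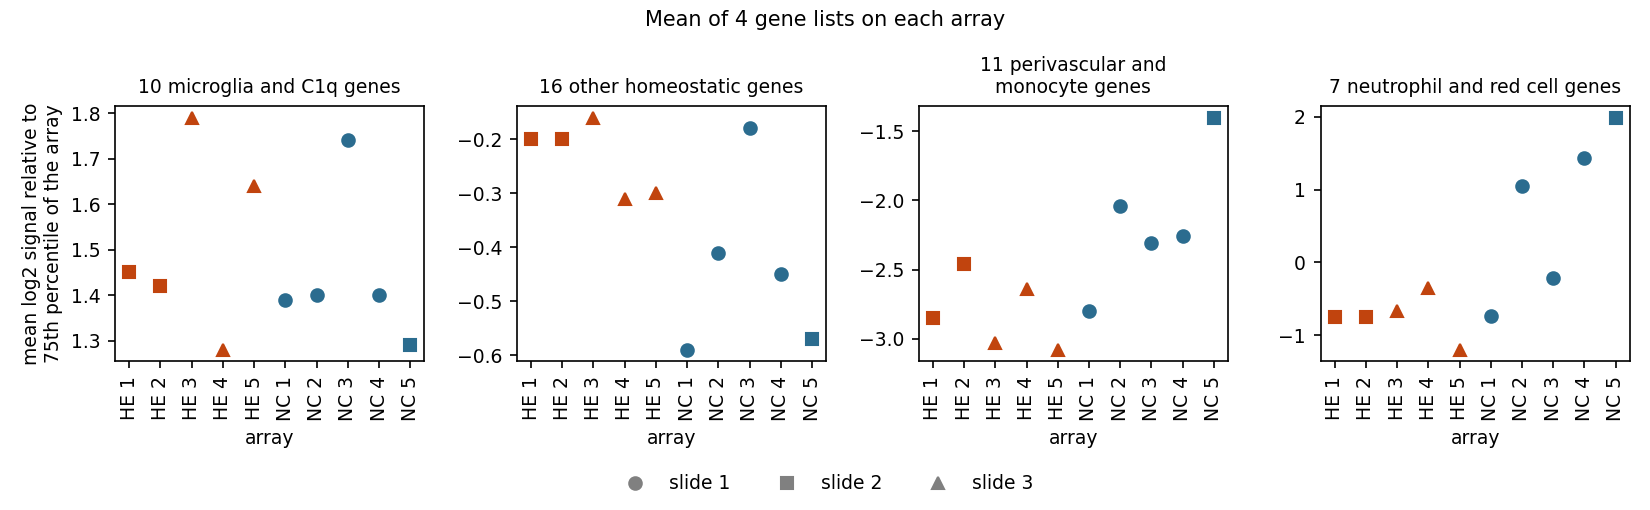
Mean log2 signal relative to the 75th percentile of the array over 4 gene lists, 1 point per array, with HE 1 to HE 5 left of NC 1 to NC 5 and the shape giving the slide. The microglia and C1q genes span 1.28 to 1.79 in HE and 1.29 to 1.74 in NC, while the perivascular and monocyte genes span -3.08 to -2.46 in HE and -2.80 to -1.40 in NC.

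The list mean of the 10 microglia and C1q genes was 1.28 to 1.79 in HE and 1.29 to 1.74 in NC, so the groups overlapped almost fully. Of 8 oligodendrocyte genes 7 were lower in HE and none higher, with list means of 2.97 to 3.39 in HE and 3.89 to 4.28 in NC. Of 7 thalamus genes all 7 were lower, with -0.63 to 0.67 in HE and 0.78 to 2.41 in NC. Among 7 astrocyte genes 1 was lower and none higher (3.16 to 3.51 in HE, 3.31 to 3.85 in NC), among 7 neuron genes 1 was higher and 1 lower (4.62 to 4.92 in HE, 4.43 to 4.87 in NC), and of 6 endothelial genes none passed (-2.39 to -1.98 in HE, -2.24 to -1.33 in NC). These values moved with group to unlike degrees, and their part in the Cx3cr1 difference was not tested. Without NC 1, NC 2 and NC 4 Cx3cr1 differed by 0.69 with an adjusted p of 0.0727.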

How the data were processed

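Total RNA of 10 hippocampi was labelled with Cy3 and read on 1-colour Agilent mouse arrays, per the labels' protocols. The submitters' processing notes name Agilent Feature Extraction 10.7. Per the file headers, the deposited intensity of a spot is linear and had its background subtracted within the array. The authors also deposited a table of log2 values, with their normalization not stated: its column medians were 7.0291 to 7.0292, its direction was that of the arrays (r of at least 0.9987 with log2 processed signal), and it served as an alternative.

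Each processed signal was put on a log2 scale against the 75th percentile of the 43379 non-control spots of each array. Flagged spots, 68 to 129 per array, were left out. A probe entered if well above background on at least 3 of 5 arrays of either group, and the entering probe with the highest mean stood for its gene. HE minus NC was fitted on all 10 arrays with limma 3.58.1 in R 4.3.3, with Benjamini-Hochberg adjustment over all 20065 genes, or all 30978 probes, and a threshold of 0.05. The steps were tested on simulated data. Probes were named through their accessions in the RefSeq table where possible (27668 of 41174), and probe coordinates are those of the scanner files (mm9). The number of arrays limits the precision.

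Named are the 10 genes with every probe, of each other list up to 3 genes with the smallest p and the ligands, partners and cleavage targets of the 10, the 5 genes most alike, and genes that complete a count; 2 genes that this rule picks are not reported here. The 10 genes and all lists were chosen with earlier results of these data known. Replicate numbers did not pair the arrays: deviations of same-numbered arrays correlated between -0.08 and 0.13, and 2 of 5 HE arrays correlated best with their own number. Arrays of a group differed with an SD of 0.435 to 0.704 on the log2 scale, so none was a duplicate. Alternatives covered slide, scaling, background correction, the dim-probe filter, the choice of probe, the Xist pattern, the liver signal and each array in turn. Leaving out HE 3 and NC 3 was added after seeing the data.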

Additional observations from a re-analysis of the deposited data

Results flagged for a closer look

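Of 30 groups of 5 arrays tested, 2 for each of the 15 probes, 1 held an array far from the others. The Aif1 probe at base 475 read 0.41 in HE 3, while the nearest HE array read -0.13, a gap of 0.836 of the range of the group against a critical value of 0.71. Chance alone marks about 1 in 20 such groups.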

How the results depend on the processing

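Of 27 alternatives, Cx3cr1 passed in 23, with log2 differences of 0.55 to 0.91 and adjusted p-values of 0.00798 to 0.108 over all 27, and kept its sign in all. Of the 10 genes, 0 passed with slide as a fixed block, on the high-Xist arrays or without NC 1, NC 2 and NC 4. Over all genes 0.922%, 0.384% and 9.56% passed there. With normexp, centred or not, 3 of the 10 passed, all higher in HE. Over all genes 43.5% passed without centring, 9.27% higher and 34.3% lower. With centring 44.2% passed, 16.3% higher and 27.9% lower. On leaving out any array 1 of the 10 passed, against 9.61 to 20.8% of all genes. Slide 2 alone gave 0 calls over all genes by limma, with 7075 genes, 2 of the 10 among them, at an unadjusted p under 0.05. Of the 15 probes, 0 passed with slide as a fixed block, on the high-Xist arrays or without NC 1, NC 2 and NC 4. Of them, 3 passed with each normexp setting, quantile normalization and the value table. With the Xist covariate 2 passed, and on leaving out an array 1 to 3. With the processing described above 1 of the 15 passed, against 23% of all probes. With the replicate number as a replicate block, Cx3cr1 differed by 0.64 (adjusted p 0.0364), and 1 of the 10 genes, 2 probes, 29 list genes, 767 genes higher and 2211 lower passed.

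Calls among the lists numbered 45, against 1 with the slide block, 0 on slide 2, 89 with normexp, 85 with centring, 4 on the high-Xist arrays, 27 without NC 1, NC 2 and NC 4, and 23 to 51 on leaving out an array. Over all genes 1369 were higher and 2662 lower in HE (34% higher), against 104 and 81 with the slide block (56.2%), 1860 and 6876 with normexp (21.3%), 3273 and 5589 with centring, 1900 and 2400 with quantile normalization (44.2%), 1919 and 2383 in the value table (44.6%), 8 and 69 on the high-Xist arrays (10.4%), 872 and 1046 without NC 1, NC 2 and NC 4 (45.5%), 825 and 2078 without HE 3 and NC 3, and 592 to 1546 higher and 1337 to 2717 lower on leaving out an array, lowest on both sides without NC 2. Normexp moved the median of all genes to -0.28, with the 10 genes at a median of 0.13; after centring these were -0.07 and 0.34.

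Signs turned as follows, and the cause was not tested. With centred normexp values Aif1 was 0.28, Trem2 0.10, Tyrobp 0.14, C1qc 0.16, Fcer1g 0.08, Plcg2 0.05, Hcst -0.61 and C1qtnf6 -0.09, and the probes read 0.12 (Aif1, base 475), -0.63 (Cx3cr1, base 884) and -0.33 (Csf1r, base 483). Without centring Aif1 was 0.06, Hcst -0.82, C1ra -0.21, C1qtnf6 -0.30, and the Cx3cr1 and Csf1r probes -0.84 and -0.55. Without NC 1, NC 2 and NC 4, C1qa was -0.06, C1qb -0.04, C1s1 0.11 and the Aif1 probe 0.03, which was 0.05 on the high-Xist arrays. C1s1 was 0.53 and C3 0.78 with the slide block and on slide 2 alone, and C1s1 was 0.25 with quantile normalization and in the value table and 0.03 without HE 3 and NC 3. Leaving out 1 array moved C1qb between -0.03 and 0.15, turning it without HE 3, NC 1, NC 2 or NC 5, and C1s1 between -0.20 and 0.05.

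With 5 arrays a group, 3 slides that hold the groups almost apart, and 7 arrays that go against the male label, differences under about the interval widths given were not resolved. Probes near background, such as those of Mbl2, Cfb, Cfi and Clec7a in HE, give lower precision. No litter, dissection or extraction order was given in the sources used here.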
